A study of Homo sapiens with 8 samples.

Results

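Pancreatic beta cells are met by T cells, natural killer (NK) cells and macrophages in insulitis, and proteins on the beta-cell surface set what these cells do on contact. Expression was examined here for 8 genes that encode such ligands, taken by symbol from the deposited table: ICAM1, CD58, PVR, NECTIN2, CD274, CD276, LGALS9 and CD47. All 8 were among the 16525 genes of the table. EndoC-βH5 is a human beta-cell line of fetal pancreatic origin, from which the immortalizing transgenes were removed, and it is a single line without immune cells. RNA was sequenced from 4 control libraries of untreated EndoC-βH5 cells and from 4 libraries of EndoC-βH5 cells exposed for 48 h to a mix of 3 cytokines, with TNFα and IFNγ at 1000 U/mL each and IL-1β at 50 U/mL. Both groups were kept in the same medium for the same time. Values are CPM, the reads on a gene scaled to the total of the library.

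The ligands fall into 4 roles. ICAM1 is bound by the leukocyte integrins LFA-1 and Mac-1, and CD58 (LFA-3) by CD2 on T and NK cells. Both hold the immune cell to its target. CD274 encodes PD-L1, which restrains T cells through PD-1, and CD276 encodes B7-H3, a relative of PD-L1 whose receptor is not settled. LGALS9 encodes galectin-9, a secreted lectin that binds surface sugars and the inhibitory receptor TIM-3. PVR (CD155) and NECTIN2 (CD112) are cell-cell adhesion proteins that share the activating receptor DNAM-1 and the inhibitory receptor TIGIT on T and NK cells. CD47 restrains phagocytosis through SIRPα on macrophages. IFNγ acts through JAK kinases and through IRF1, which binds IRF elements, and GAS elements are known from genes that respond to it. In general, IL-1β and TNFα act largely through NF-kB. In EndoC-βH5 cells the study saw no early effect of cytokines on its markers of IL-1β and TNFα signaling. It also reported very low expression of their receptors.

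The control libraries held 36956294 to 40117636 reads on these genes and the cytokine libraries 36577438 to 39348935. A read was worth 0.0196 to 0.0214 CPM. The 4 libraries of each group are called A to D here, with the same letter where a control and a cytokine column begin with the same name. The names of A and B share an ending, as do those of C and D, and the libraries stood apart by this ending. The change of each ligand is therefore also given within A and B and within C and D. C and D were much less alike than A and B. Between C and D the chi-square over genes, per gene, was 66.6 in control and 84.6 in cytokine libraries. Between A and B it was 13.3 and 5.89. Across endings it was 121 to 294 in control and 101 to 252 in cytokine libraries. Cytokine library D was thus little closer to C (84.6) than to A (101) and B (106). The labels do not say whether the replicates are separate cultures, so p-values measure the spread between these libraries, which may be technical. All 14 beta-cell markers of a list of general knowledge were measured, with a summed level of 25029 to 37304 CPM in control and 29890 to 53307 CPM in cytokine libraries; 8 of the 14 were called lower with cytokines and 0 higher. Of 11 leukocyte markers only CD14 was among the listed genes (1.07 to 3.26 CPM in control and 1.23 to 1.95 CPM in cytokine libraries), and 0 of 6 endothelial markers were listed. Listed from the other marker lists were 2 of 7 fibroblast markers (3.56 to 5.30 and 4.29 to 6.41 CPM summed), 2 of 5 ductal markers (85.7 to 161 and 88.6 to 166 CPM), 1 of 5 acinar markers (CPA1, 7.47 to 9.04 and 2.82 to 5.04 CPM, called lower at -1.06) and 5 of 5 markers of other islet cells (471 to 2186 and 560 to 2002 CPM).

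The 250 bases before the RefSeq start (GRCh38.p14) of the 4 genes that rose are printed, each read 5′ to 3′ on the gene's own strand. They show which of 3 response motifs stand in that window. Capitals mark a match to a GAS motif (TTCNNNGAA), an IRF motif (GAAA, any 2 bases, GAAA) or an NF-kB motif (GGANNTTCC), searched on both strands.

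ICAM1: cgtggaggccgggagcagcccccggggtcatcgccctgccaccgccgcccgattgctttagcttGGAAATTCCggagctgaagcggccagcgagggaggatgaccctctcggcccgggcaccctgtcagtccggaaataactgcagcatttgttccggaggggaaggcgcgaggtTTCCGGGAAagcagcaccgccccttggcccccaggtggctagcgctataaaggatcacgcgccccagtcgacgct
CD274: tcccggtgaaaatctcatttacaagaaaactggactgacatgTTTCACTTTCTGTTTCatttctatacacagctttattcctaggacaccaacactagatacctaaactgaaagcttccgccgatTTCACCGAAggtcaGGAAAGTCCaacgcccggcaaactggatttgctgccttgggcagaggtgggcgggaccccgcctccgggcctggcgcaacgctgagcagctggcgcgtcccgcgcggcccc
CD47: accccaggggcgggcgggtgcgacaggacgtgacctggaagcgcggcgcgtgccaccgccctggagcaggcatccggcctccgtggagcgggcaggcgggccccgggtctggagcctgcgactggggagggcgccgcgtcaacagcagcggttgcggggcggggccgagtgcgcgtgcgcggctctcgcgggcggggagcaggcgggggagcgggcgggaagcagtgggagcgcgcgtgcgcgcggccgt
PVR: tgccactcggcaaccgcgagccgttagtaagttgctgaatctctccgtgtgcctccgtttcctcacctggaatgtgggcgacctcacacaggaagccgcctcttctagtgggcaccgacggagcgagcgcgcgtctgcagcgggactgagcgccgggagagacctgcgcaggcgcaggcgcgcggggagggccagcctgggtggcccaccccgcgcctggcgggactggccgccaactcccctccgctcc

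These windows lie at chr19:10270870-10271119 (ICAM1, plus strand), chr9:5450292-5450541 (CD274, plus strand), chr3:108091032-108091281 (CD47, minus strand) and chr19:44643660-44643909 (PVR, plus strand). The ICAM1 window held an NF-kB match GGAAATTCC from -186 to -178 and a GAS match TTCCGGGAA from -75 to -67, counted back from the start. The CD274 window held 2 overlapping IRF matches, TTTCACTTTC from -208 to -199 and TTTCTGTTTC from -202 to -193, a GAS match TTCACCGAA from -125 to -117 and an NF-kB match GGAAAGTCC from -111 to -103. The windows of CD47 and PVR, and those of CD58, NECTIN2, LGALS9 and CD276 (which has 2 windows), held none of these letters. Over all 35116 windows of the same length, 6.57% held the GAS motif, 3.02% the IRF motif and 3.84% the NF-kB motif. A match describes the sequence and was not tested for binding.

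Among the 8 ligands limma called 4 higher with cytokines (ICAM1, CD274, CD47 and PVR) and 0 lower, and 4 were not called (NECTIN2, CD276, LGALS9 and CD58). Calls needed an adjusted p below 0.05 and a log2 fold change beyond 0.5 in either direction, on the log2(CPM + 0.1) scale. Of all 16525 genes 27.0% were called, with 9.52% higher and 17.5% lower. The median log2 fold change was 0.38 over the 8 genes and -0.17 over all genes. The control and cytokine ranges did not overlap in ICAM1, CD274, CD47 and PVR, as in 32.8% of all genes, and each of the 4 had p = 0.0286 in a 2-sided exact permutation test. The table lists only genes above 0.5 CPM in at least 4 samples. ICAM1 was below 0.5 CPM in every control library and CD274 in control library A. Neither would pass on its controls alone, so both are listed through libraries where they are high. Their lack of overlap, p-values and calls are shaped in part by that selection. With TMM scaling, which moved the median of all genes to -0.01, the share called was 24.7% (13.1% higher, 11.6% lower), and 4 of the 8 ligands were again called. The same number was called by edgeR on recovered reads (24.5% of all genes) and by DESeq2 (27.2%). Because the RNA is from bulk cultures, a change in the share of expressing cells and a change in RNA per cell cannot be told apart.

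**Figure D1:**
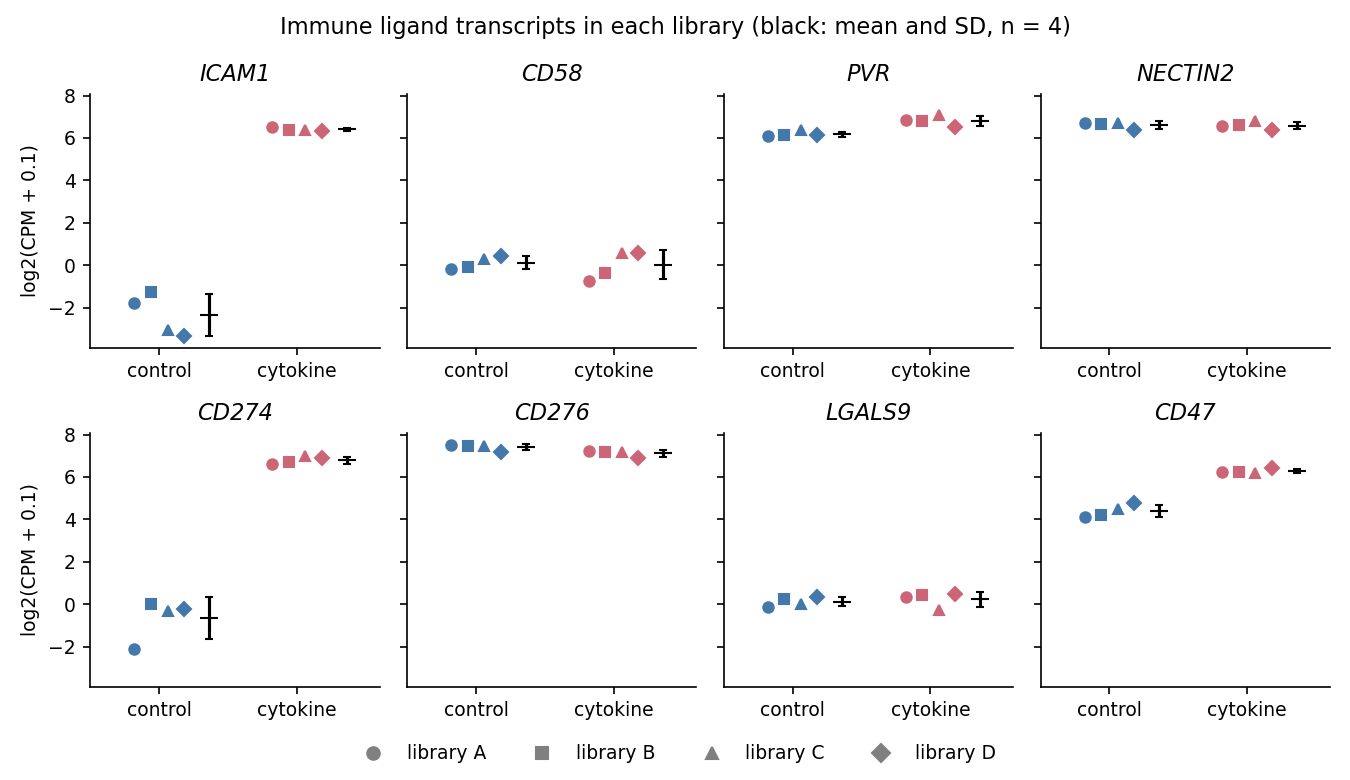
Level of each ligand transcript as log2(CPM + 0.1), with 1 point per library (shape: library A to D), control libraries in blue, cytokine libraries in red, and the mean and SD in black (n = 4 each). ICAM1, CD274, CD47 and PVR have all 4 cytokine libraries above all 4 control libraries, and the ranges of the other 4 genes overlap.

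ICAM1 was almost unread in control cells and among the well-read genes with cytokines. ICAM1 (ENSG00000090339, chromosome 19, 10270835 to 10286615, 8 merged exons) had 9, 15, 1 and 0 reads in control libraries A to D. In the cytokine libraries it had 4279, 3885, 4159 and 3979 reads. These reads correspond to 0.132 ± 0.151 CPM in control and 84.4 ± 4.74 CPM in cytokine libraries (SD, n = 4 each). The cytokine libraries lay within a narrow range of 79.9 to 91.1 CPM, and libraries A and B held nearly all of the 25 control reads. Its log2 fold change was 8.75 (adjusted p = 7.26e-08, SE 0.40, limma). The ratio of the mean CPM was 637 and rests on those 25 control reads. The fitted size moved with the constant added before the logarithm, to 6.25 with 1 CPM added, and was 9.48 in edgeR (adjusted p = 5.76e-07). Within A and B the difference was 7.96 and within C and D, where controls had at most 1 read, 9.55. The test of this difference between name endings gave 1.59 (SE 0.34, adjusted p = 0.589, limma), while 0.0303% of all genes passed it. ICAM1 shares 815 exon bases with AC011511.5 on the opposite strand. The library kit keeps strand, but counting used default settings, and whether their strand setting suits the kit was not tested for this or any other gene.

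CD58, the other adhesion ligand, was low in both groups. CD58 (ENSG00000116815, chromosome 1, 116514535 to 116571039) was 0.770, 0.847, 1.13 and 1.25 CPM in control libraries A to D and 0.490, 0.683, 1.41 and 1.39 CPM in cytokine libraries A to D. In both groups C and D were above A and B. The mean was 1.0 ± 0.229 CPM in control and 0.992 ± 0.475 CPM in cytokine libraries (SD, n = 4 each), from 23 to 70 reads a library. Its fitted log2 fold change was -0.10 with a 95% interval of -0.86 to 0.66 (adjusted p = 0.854, limma), and changes within this interval cannot be told from the spread between libraries. It was -0.42 within A and B and 0.21 within C and D, a difference that did not pass the test (0.63, SE 0.47, adjusted p = 0.999, limma).

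CD274 showed the second largest rise. CD274 (ENSG00000120217, chromosome 9, 5450503 to 5470566) was 0.128, 0.910, 0.697 and 0.763 CPM in control libraries A to D, from 6, 43, 35 and 39 reads. With cytokines it was 96.7, 103, 125 and 119 CPM. Control library A was lower than the other 3, and the cytokine libraries C and D were above A and B. The means were 0.624 ± 0.343 CPM and 111 ± 13.1 CPM (SD, n = 4 each), a ratio of 178. The log2 fold change was 7.45 (adjusted p = 2.18e-07, SE 0.39, limma), and 6.96 without control library A. It was 7.70 within A and B and 7.20 within C and D.

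CD276, the relative of PD-L1, was well expressed in both groups and was not called. CD276 (ENSG00000103855, chromosome 15, 73683966 to 73714518) was 181, 179, 174 and 145 CPM in control libraries A to D and 149, 146, 143 and 117 CPM in cytokine libraries A to D. Library D was the lowest of both groups as CPM, and control D lay below cytokine A and B, so the ranges overlapped. As TPM, which leaves out reads off the listed genes, control D (114) was above control A (110) and B (108). The means were 170 ± 16.8 CPM and 139 ± 14.7 CPM (SD, n = 4 each). Its log2 fold change was -0.29 with a 95% interval of -0.57 to -0.01 (unadjusted p = 0.0418, adjusted p = 0.104, limma; p = 0.0857, 2-sided exact permutation test, n = 4 against 4). CD276 was lower in 4 of 4 pairs of libraries, by values between -0.31 and -0.28. It was -0.29 both within A and B and within C and D. With TMM scaling the difference was -0.13 (adjusted p = 0.513, limma).

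LGALS9 was low in both groups and was not called. LGALS9 (ENSG00000168961, chromosome 17, 27629798 to 27649560) was 0.813, 1.08, 0.916 and 1.15 CPM in control libraries A to D and 1.15, 1.24, 0.725 and 1.31 CPM in cytokine libraries A to D. Cytokine library C was the lowest of all 8, and the ranges overlapped. Its fitted log2 fold change was 0.13 with a 95% interval of -0.44 to 0.69 (adjusted p = 0.748, limma), from 36 to 65 reads a library. It was 0.32 within A and B and -0.07 within C and D. LGALS9 is uncertain as measured, since near-identical gene copies (LGALS9B and LGALS9C, not analysed here) can take reads from it, and 294 of its exon bases are shared with AC015688.4 on the same strand.

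PVR rose and its relative NECTIN2 was not called. PVR (ENSG00000073008, chromosome 19, 44643798 to 44663583) was 68.1, 70.8, 81.9 and 69.9 CPM in control libraries A to D and 115, 112, 137 and 91.5 CPM in cytokine libraries A to D. Library C was the highest of both groups, and the smallest rise was that of library D. The means were 72.7 ± 6.27 CPM and 114 ± 18.5 CPM (SD, n = 4 each), a ratio of 1.56. The log2 fold change was 0.63 (adjusted p = 0.00524, SE 0.14, limma), 0.79 with TMM scaling, and 0.71 within A and B and 0.56 within C and D. Of its 3519 exon bases PVR shares 121 with CEACAM19 on the same strand, whose mean over all libraries was 18.3 CPM.

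NECTIN2 (ENSG00000130202, chromosome 19, 44846175 to 44889228), on the same chromosome arm as PVR, was 105, 99.5, 105 and 82.2 CPM in control libraries A to D. With cytokines it was 94.7, 96.2, 111 and 82.7 CPM. Library D was the lowest of both groups as CPM, and the ranges overlapped. As TPM, which leaves out reads off the listed genes, control library D (95.8) was above A (94.8) and B (89.2). Cytokine library D (103) was also above A (94.1) and B (96.1) on that scale. The means were 98.0 ± 10.9 CPM and 96.2 ± 11.7 CPM (SD, n = 4 each). Its log2 fold change was -0.03 with a 95% interval of -0.32 to 0.26 (adjusted p = 0.893, limma), and 0.13 with TMM scaling (adjusted p = 0.526, limma). It was -0.10 within A and B and 0.043 within C and D. A change of 0.5 in either direction lies outside the interval.

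CD47 rose from a moderate level. CD47 (ENSG00000196776, chromosome 3, 108043094 to 108091862) was 17.1, 18.6, 22.2 and 27.4 CPM in control libraries A to D and 75.7, 74.0, 73.6 and 84.9 CPM in cytokine libraries A to D. The cytokine libraries lay close together, while controls spread from A, the lowest, to D, the highest. The means were 21.3 ± 4.56 CPM and 77.1 ± 5.30 CPM (SD, n = 4 each), a ratio of 3.61. Its fitted log2 fold change was 1.87 (adjusted p = 6.67e-06, SE 0.15, limma), 2.06 within A and B and 1.68 within C and D. The difference between these was -0.38 (SE 0.20, adjusted p = 0.999, limma).

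**Figure D2:**
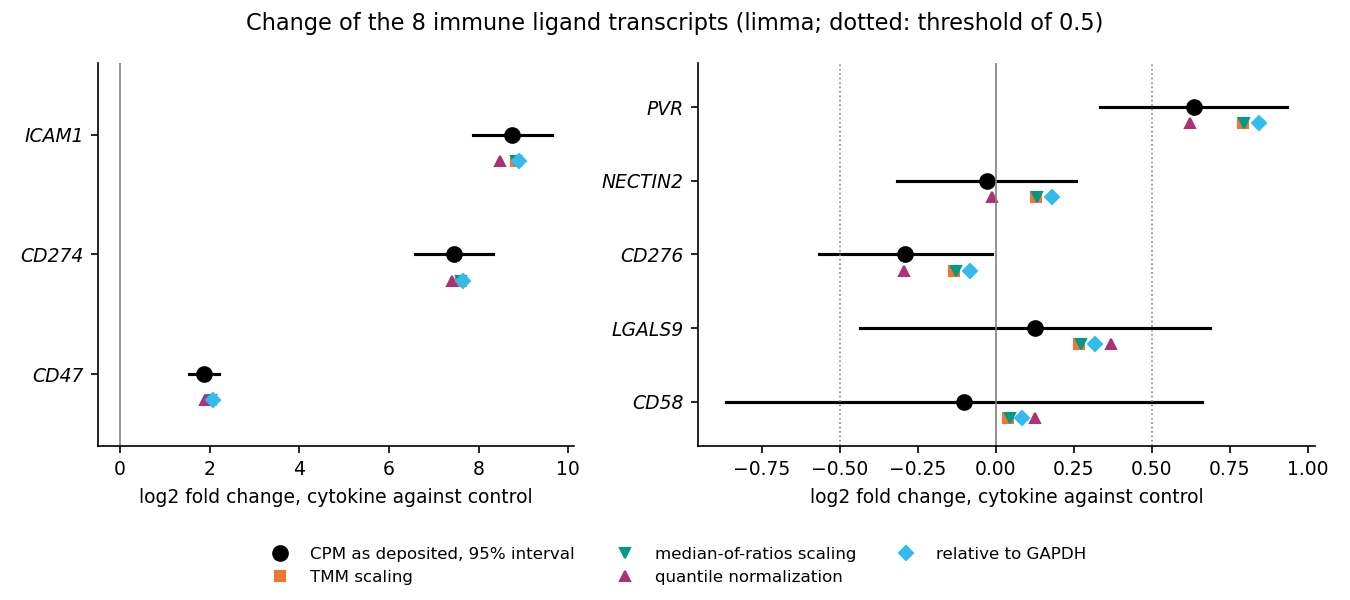
Log2 fold change of each ligand, cytokine against control, on the log2(CPM + 0.1) scale, with the 95% interval from limma in black and the value under 4 other scalings as coloured markers; the panels have different horizontal scales, and dotted lines in the right panel stand at 0.5 and -0.5. ICAM1 (8.75), CD274 (7.45) and CD47 (1.87) lie far above the threshold, PVR (0.63) just above it, and the intervals of NECTIN2, LGALS9 and CD58 span 0.

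Levels of different genes were compared as TPM, which divides reads by exon length (GENCODE 29) before scaling to an equal total. In control libraries the order of mean TPM was CD276 (117 ± 11.4), NECTIN2 (99.7 ± 13.3), PVR (79.6 ± 16.0), CD47 (10.2 ± 3.52), CD58 (2.20 ± 0.799), LGALS9 (0.669 ± 0.166), CD274 (0.595 ± 0.329) and ICAM1 (0.122 ± 0.136; SD, n = 4 each). CD276, NECTIN2 and PVR kept this order in 4 of 4 control libraries. NECTIN2 overlapped in range with both, while CD276 (108 to 133 TPM) lay above PVR (65.3 to 98.8 TPM). PVR stood apart from CD47, CD47 from CD58 and CD58 from LGALS9. LGALS9 was above CD274 in 2 of 4 libraries, and CD274 above ICAM1 in 3 of 4.

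With cytokines the order was PVR (134 ± 26.5 TPM), CD274 (113 ± 25.9), NECTIN2 (106 ± 17.8), CD276 (103 ± 8.22), ICAM1 (94.3 ± 8.25), CD47 (39.1 ± 6.77), CD58 (2.41 ± 1.37) and LGALS9 (0.799 ± 0.208; SD, n = 4 each). Each of the first 5 overlapped in range with its neighbours in this order, but the PVR libraries (119 to 174 TPM) lay above all those of CD276 (98.8 to 116 TPM) and ICAM1 (83.8 to 101 TPM). ICAM1 and CD47, and CD47 and CD58, had ranges apart, and CD58 was above LGALS9 in 4 of 4 libraries with ranges that overlapped. Among the 16167 listed genes with a length, ICAM1 was above 0.668% in control cells and above 92.1% with cytokines, and CD274 above 4.18% and 94.0%. The corresponding shares were 46.2% and 78.8% for CD47 and 91.1% and 95.1% for PVR. NECTIN2 was above 93.4% of genes in both groups.

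**Figure D3:**
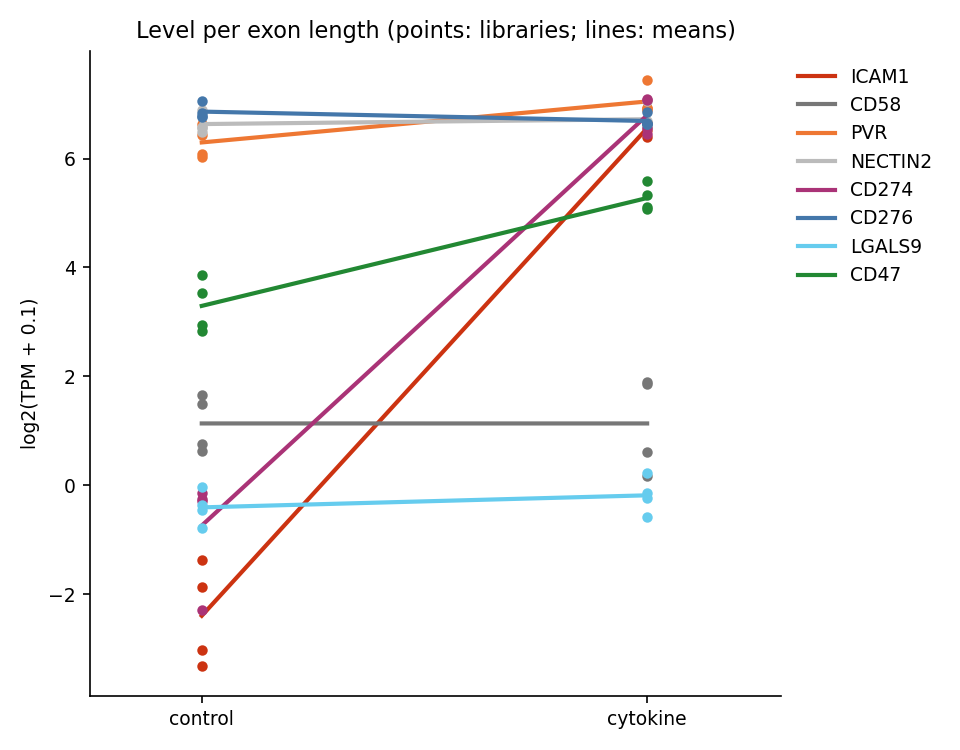
Level per exon length of the 8 ligand transcripts as log2(TPM + 0.1), with points for the 4 libraries of each group and lines joining the group means. ICAM1 and CD274 start below 1 TPM and end beside PVR, NECTIN2 and CD276, at mean levels of 94.3 and 113 TPM, while CD58 and LGALS9 stay at the bottom, at 2.41 and 0.799 TPM.

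The balance between pairs of ligands was described as a ratio of CPM + 0.1 within each library. The pairs share a receptor, family or role, except CD47 and CD58. Each of the 4 pairs sets a ligand that rose over one that was not called, and the pairs were chosen with results known. The ratios thus restate the changes above, and the permutation test run on them is not used as support. The log2 ratio of PVR to NECTIN2, which share receptors, was -0.43 ± 0.17 in control and 0.24 ± 0.07 in cytokine libraries (SD, n = 4 each), a difference of 0.66. The log2 ratio of CD274 to CD276, both of the B7 family, differed by 7.74, and by 6.42 with 1 CPM added in place of 0.1. That of ICAM1 to CD58, the adhesion ligands, differed by 8.86, and by 6.28 with 1 CPM added. The log2 ratio of CD47 to CD58 differed by 1.97, with a wider spread in cytokine (SD 0.65) than in control libraries (SD 0.08). These ratios are of CPM values and their level reflects gene length.

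**Figure D4:**
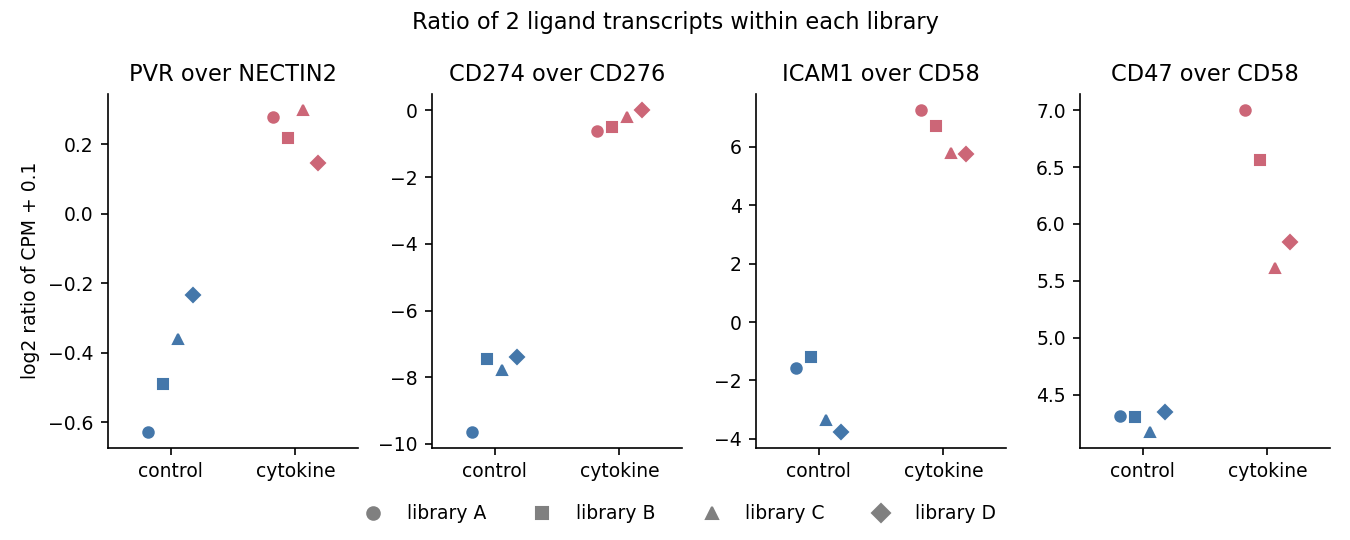
Log2 ratio of CPM + 0.1 between 2 ligand transcripts in each library (shape: library A to D; blue: control, red: cytokine; each panel has its own vertical scale). In every panel the 4 cytokine libraries lie above the 4 control libraries, from a difference in means of 0.66 for PVR over NECTIN2 to 8.86 for ICAM1 over CD58.

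Other genes of the same families and pathways were taken from 11 lists of general knowledge with 110 genes, of which 61 were measured. Of these 61, the calls were 20 higher and 9 lower, and 32 had none (47.5% called, against 27.0% of all genes), with a median log2 fold change of 0.31. With TMM scaling 24 were called higher and 5 lower. A replicate block made of the library pairs called 33 of the 61, where it called 35.4% of all genes, and the 4 gained were LGALS3, TNFSF13, CMTM4 and CD226. The other 49 genes of the lists were not analysed here.

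Of 8 further B7 family genes 3 were measured (NCR3LG1, ICOSLG and VSIR) and 0 called. NCR3LG1, the ligand of the NK receptor NKp30, was 8.95 ± 0.375 and 12.6 ± 1.08 CPM (SD, n = 4 each) without overlap of the libraries, and its difference of 0.49 (adjusted p = 0.0155, limma) became a call with TMM scaling (0.64). Of 10 measured adhesion ligands 4 were called higher and 1 lower. ICAM2, like ICAM1 a ligand of LFA-1, rose from 5.08 ± 0.702 to 18.6 ± 4.28 CPM, by 1.84 on the log2 scale (adjusted p = 3.31e-05, SE 0.18, limma). CDH1, the epithelial cadherin that also binds receptors of T and NK cells, rose from 213 ± 14.2 to 798 ± 24.4 CPM (1.90). F11R, a junctional adhesion molecule, rose by 0.65, and CD99 by 0.56. L1CAM, a neural adhesion molecule, was called lower (-0.66), a call that was lost with TMM scaling (-0.50). Of 4 nectins and CADM genes NECTIN1 alone was called, lower (-0.54), and it was also lost with TMM scaling (-0.39).

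Of 6 measured galectin genes 3 were called higher and 1 lower, with TMM scaling as well. LGALS3BP, a secreted galectin-binding glycoprotein, rose from 516 ± 95.1 to 1618 ± 350 CPM (SD, n = 4 each; log2 difference 1.64). LGALS1 rose from 1.16 ± 0.257 to 3.47 ± 1.58 CPM (1.40) and LGALS8 from 37.6 ± 2.65 to 57.7 ± 2.97 CPM (0.62). LGALS2 fell from 0.948 ± 0.370 to 0.0518 ± 0.0444 CPM, with 0 to 5 reads in the cytokine libraries. It was below 0.5 CPM in every cytokine library, so it is listed through libraries where it is high. Its call and lack of overlap are shaped in part by that selection. The rise of LGALS1 was 0.75 within A and B and 2.06 within C and D. LGALS3 was not called (0.90, adjusted p = 0.109, limma) but was with the replicate block (adjusted p = 0.0163, limma).

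Among 6 measured phagocytosis signals SIRPA, the receptor of CD47, was lower with cytokines, from 92.0 ± 26.6 to 41.3 ± 12.1 CPM (SD, n = 4 each), with a log2 difference of -1.16 (adjusted p = 0.00481, SE 0.24, limma). LRP1, a receptor that binds calreticulin, was called lower (-0.69), a call that was lost with TMM scaling (-0.54). CALR, which encodes calreticulin, was called higher at 0.50, on the threshold. QPCTL, whose enzyme modifies CD47 at the SIRPα binding site, was not called (-0.31, adjusted p = 0.251, limma).

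Of the 4 measured TNF superfamily ligands, TNFSF10 (TRAIL), a death ligand, rose from 5.37 ± 0.756 to 38.3 ± 3.20 CPM (SD, n = 4 each; log2 difference 2.82), and the other 3 were not called. TNFSF13 (APRIL), a B-cell survival factor, was one of these (-0.60, adjusted p = 0.0805, limma) and was called lower with the replicate block (adjusted p = 0.0162, limma). Of 8 other immune regulators 3 were called higher and 3 lower. TNFRSF14 (HVEM), the ligand of the inhibitory receptor BTLA, rose from 44.8 ± 2.51 to 171 ± 3.49 CPM (1.93). CEACAM1, an adhesion molecule that also binds TIM-3, rose from 40.3 ± 10.3 to 149 ± 48.5 CPM (1.85). SERPINB9, an inhibitor of granzyme B, rose from 9.91 ± 1.22 to 25 ± 2.1 CPM (1.33). CD83, SEMA4A and NT5E were called lower (-1.17, -0.78 and -0.61), and the call of NT5E, which was -0.40 within A and B and -0.83 within C and D, was lost with TMM scaling (-0.46). The only measured gene of the NK ligand list, ULBP3, was not called (0.31).

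Of 7 measured factors that act on the ligand proteins 1 was called, B3GNT3, a glycosyltransferase that modifies PD-L1, which was lower (-0.69, SE 0.17, adjusted p = 0.00966, limma), by -0.42 within A and B and -0.96 within C and D. CMTM4, a relative of CMTM6, was not called (-0.50, adjusted p = 0.0707, limma) but was with the replicate block (adjusted p = 5.42e-05, limma). CMTM6, which keeps PD-L1 and CD58 at the surface, was 33.2 ± 11.5 and 30.0 ± 6.82 CPM (-0.11, adjusted p = 0.782, limma). Of the 11 regulators of ICAM1 and CD274 on the list, 8 were called higher and 0 lower. IRF1 rose by 6.03 and SOCS1 (a feedback inhibitor of JAK kinases) by 5.62 on the log2 scale. JAK1, NFKB1 and NFKBIA were not called (0.08, 0.41 and 0.40). The list of receptors by which immune cells bind the ligands held 10 genes, without SIRPA, which is given above with the phagocytosis signals. Of these 10, CD226 (DNAM-1) alone was measured, at 0.894 ± 0.415 and 0.428 ± 0.218 CPM (SD, n = 4 each). CD226 was not called (-0.89, adjusted p = 0.130, limma) but was called lower with the replicate block (adjusted p = 0.0103, limma).

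**Figure D5:**
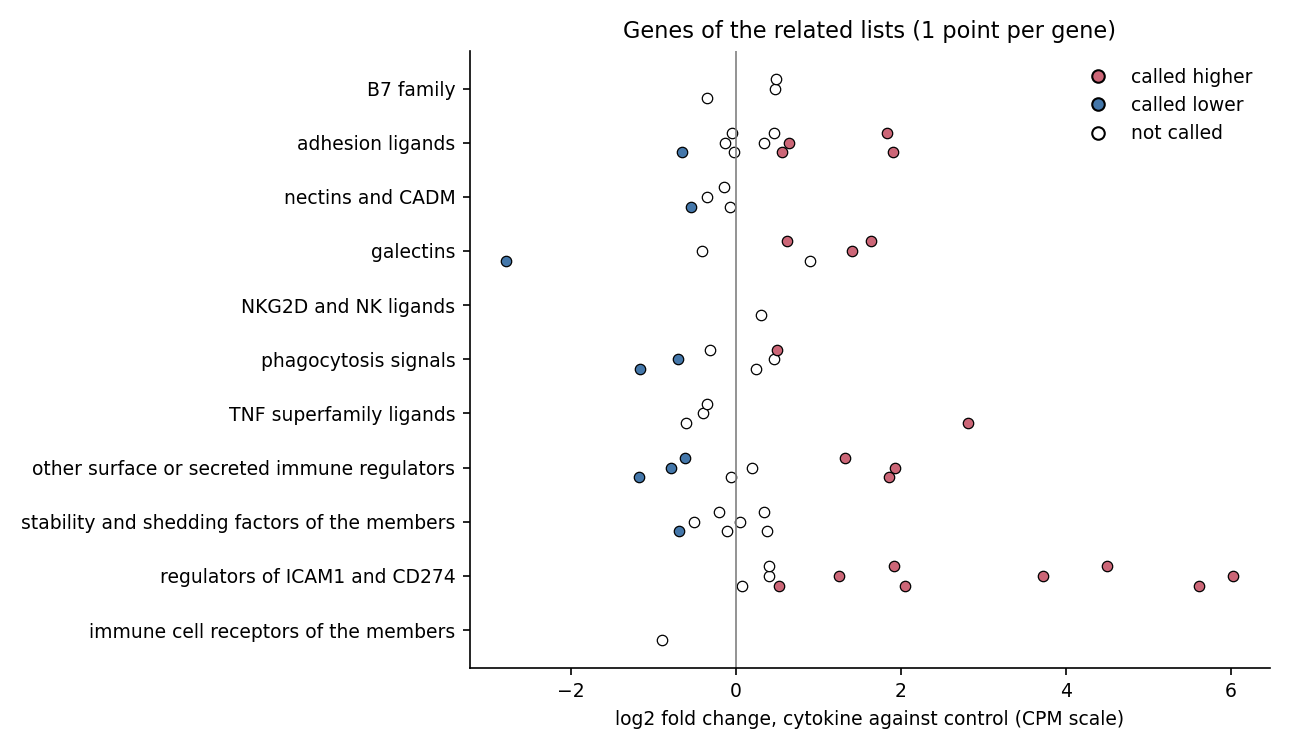
Log2 fold change, cytokine against control, of the 61 measured genes of 11 related lists, with 1 point per gene (red: called higher, blue: called lower, white: not called). The largest rises are those of IRF1 (6.03) and SOCS1 (5.62), and the point farthest to the left is LGALS2 (-2.78). LGALS2 has 0 to 5 cytokine reads, and the size of its fall depends on the method. With 1 CPM added in place of 0.1, more than its control mean of 0.948 CPM, it is -0.87 (SIRPA: -1.14). In edgeR it is -3.98 (SIRPA: -1.02).

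The genes whose pattern over the 8 libraries was most like each ligand were sought among 13854 genes with a symbol and a mean of at least 1 CPM. For ICAM1 these were HLA-B and NLRC5 (Pearson r of 0.998 for both), and for CD274 MT2A and PSMB10 (0.997 for both). For CD47 they were RASGRP3 and PFKP (0.997 for both), and for PVR HSPA8 (0.986) and BAK1 (0.984). In these genes the difference between the groups makes most of the correlation, and 439 genes had an r above 0.95 with ICAM1 and 490 with CD274. For CD276 they were GNAI2 (0.997) and CLIP2 (0.993), and for NECTIN2 ABL1 (0.984) and MAP2K2 (0.978). For CD58 they were ZNF350 (0.982) and GTPBP8 (0.970), and for LGALS9 NSMAF (0.983) and ZNF169 (0.965), with 4 and 6 genes above 0.95. The libraries share depth and name endings, so these values describe the pattern only.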

How the data were processed

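RNA libraries were made from EndoC-βH5 cells with a strand-specific mRNA kit. According to the submitters' processing notes and the study's methods, the authors aligned reads with TopHat2 2.1.1 to GRCh38, counted them with HTSeq 0.9.1 at default settings on Ensembl release 107 genes, and deposited CPM values for genes above 0.5 CPM in at least 4 samples. The 4 other columns of per-sample values in the table were not used. Every value was a whole multiple of 1 read (100% within 0.01 read), so reads were recovered. log2(CPM + 0.1) values were tested with limma 3.58.1 (R 4.3.3; trend on, no block) with Benjamini-Hochberg adjustment over 16525 genes, at the study's thresholds (0.5 and 0.05). The count tests, edgeR 4.0.16 (quasi-likelihood, the study's test) and DESeq2 1.42.0, were alternatives on recovered reads, beside other scalings, pseudocounts, filters, a replicate block and leaving out each library. Control and cytokine columns that share the first part of their name deviated together from the group means (r across genes of 0.46, 0.50, 0.75 and 0.68 in pairs A to D), though A and B were also alike across pairs (0.45 and 0.49); the pairing comes from the column names. Within a group no library was a copy of another (smallest chi-square over genes, per gene, 5.89). TPM used GENCODE 29 exon lengths, held by 16167 genes; coordinates are from the same annotation on GRCh38. Promoter windows are from RefSeq. All 8 members matched. The members, lists and pairs were chosen with earlier results of these data known. Genes named were the members, up to 3 called genes in each direction per list, the 2 most alike genes per member, and some genes not called or near the threshold, added after their values were seen. Of the genes this rule names, 1 is not reported here. Intervals cover the spread between libraries. Analyses used Python 3.11.15, pandas 2.3.3, numpy 2.4.6, scipy 1.17.1 and matplotlib 3.10.9.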

Additional observations from a re-analysis of the deposited data

Results flagged for a closer look

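In 62 groups of 4 libraries (the 8 ligands and 23 named genes of the lists, control and cytokine), 6 held a library far from the other 3. Chance would give about 1 in 20 if the groups were independent. They are drawn from the same 8 libraries, so that rate is only a rough guide. Among the ligands, CD276 was 117 CPM in cytokine library D, against 143 to 149 CPM in the other cytokine libraries. As TPM, which leaves out reads off the listed genes, it was 99.9, 99.0, 116 and 98.8 in cytokine libraries A to D. On that scale library D was not apart from A and B. F11R was 41.8 CPM in cytokine library C against 26.0 to 28.2 CPM in the others. In control library B, LGALS1 was 1.55 CPM (0.984 to 1.08 CPM in the others), LGALS2 was 1.503 CPM (0.748 to 0.776 CPM) and SOCS1 was 1.69 CPM (0.956 to 1.08 CPM). TNFSF10 was 4.23 CPM in control library A against 5.73 to 5.76 CPM in the other controls. The cause was not tested.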

How the results depend on the processing

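The count of ligands called was 4 under every alternative run, including each of the 8 fits without a library, and the related genes called ranged from 25 to 31 when a library was left out, against 29. Over all genes 4470 were called, and 3899 to 4339 when a library was left out. The split of all calls moved with the scaling, from 1574 higher and 2896 lower on the CPM scale to 2168 and 1911 with TMM, 2200 and 1883 with median-of-ratios, 1856 and 2201 with quantile normalization and 2257 and 1297 relative to GAPDH. A replicate block made of the pairs A to D called 5852 genes in limma (35.4% of all genes) and 5287 in edgeR with TMM, changed no call of the 8 ligands and gained 4 related genes in limma; with it the adjusted p of CD276 was 0.000401 (limma), with the fold change still under the threshold.

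2 ligands that were not called changed sign. CD58 (-0.10) was 0.040 with TMM, 0.045 with median-of-ratios, 0.13 with quantile normalization, 0.085 relative to GAPDH, 0.15 in edgeR, 0.15 in DESeq2 and 0.076 in edgeR with the replicate block, and it ranged from -0.30 to 0.16 when a library was left out. NECTIN2 (-0.03) was 0.13 with TMM, 0.13 with median-of-ratios, 0.18 relative to GAPDH, 0.13 in edgeR, 0.13 in DESeq2 and 0.13 in edgeR with the replicate block, and it ranged from -0.11 to 0.042 when a library was left out. CD58, with a mean under 1 CPM, was not tested under the filter at 1 CPM. With a library left out, the log2 ratio differences ranged from 0.60 to 0.73 for PVR to NECTIN2, 7.22 to 7.97 for CD274 to CD276, 8.43 to 9.28 for ICAM1 to CD58 and 1.72 to 2.19 for CD47 to CD58. With 0.5 and 1 CPM added in place of 0.1, the difference was 6.98 and 6.42 for CD274 to CD276 and 7.15 and 6.28 for ICAM1 to CD58.

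The 31 genes named by rule include the 4 ligands not called, which had no call to lose. Of the rest, 8 lost their call in 1 or more of 20 alternatives: CALR and NT5E in 10, NECTIN1 in 9, LRP1 in 6, L1CAM in 5, and F11R, SEMA4A and B3GNT3 in 1. LGALS2 was not tested under the filter at 1 CPM. CD58 and LGALS9 had at most 70 reads a library, and ICAM1 and CD274 at most 43 in controls; the part of depth in their spread was not tested.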
